A study of Mus musculus with 4 samples.

Results

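The 10 genes described here are SMAD signal transducers and feedback genes of transforming growth factor beta (TGF-beta) signalling: Smad2, Smad3, Smad4, Smad6, Smad7, Ski, Skil, Klf10, Tgif1 and Pmepa1. They were chosen by name, with earlier results of these data known, and all 10 were found among the 19074 genes listed for each library. Single islet cells of C57BL/6 mice were profiled with a droplet 3′ assay that counts captured RNA molecules by unique molecular identifiers (UMIs). The control group, labelled wild type, held 2 libraries from mice with floxed Sel1L alleles (Sel1Lf/f), and the Sel1L knockout group held 2 libraries from mice in which Sel1L is deleted from the insulin-producing cells (Sel1LIns1). SEL1L is a scaffold of the complex that removes misfolded proteins from the endoplasmic reticulum. Age is 7 weeks for both groups by the sample labels, whereas the series text gives 5 weeks. Islets of both groups were left to recover overnight and were taken apart with trypsin. The Cre allele is tied to the knockout group, and mice with Cre and intact Sel1L were not analysed here, so the effect of Cre and that of the deletion cannot be told apart. The labels do not say whether libraries of a group came from separate animals, so p-values measure only how far these libraries scatter, which may be technical.

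Ligands of the TGF-beta and activin family bind paired receptor kinases that phosphorylate SMAD2 and SMAD3, which then join SMAD4 and enter the nucleus. The pathway limits itself: its targets include the inhibitory SMAD7, the corepressors SKI and SKIL, the early response factor KLF10 and the membrane protein PMEPA1, which binds SMAD2 and SMAD3. SMAD6 is the inhibitor more closely tied to bone morphogenetic protein (BMP) signals. In islets, activins and TGF-beta are known to act on hormone secretion and on the maintenance of beta cell identity.

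Cells were sorted into classes by the share of their UMIs that came from hormone transcripts, with at least 10% insulin for beta cells and at least 3% glucagon or somatostatin, with insulin under 5%, for alpha and delta cells. The 4 libraries gave 3541, 3471, 2403 and 1373 beta cells (wild type 1 and 2, then knockout 1 and 2), 1112, 939, 759 and 328 alpha cells, and 458, 532, 307 and 230 delta cells. Every class held UMIs of all the markers listed for it in every library. Wild type beta cells took 67.7% and 68.3% of their UMIs from insulin transcripts, against 41.0% and 44.5% in knockout beta cells, whose median number of detected genes was also higher (5440 and 5715 against 4069 and 4126). Beta markers other than hormones summed to 3450 and 3460 non-hormone CPM (CPM with the 7 hormone genes left out of the total) in wild type beta cells, against 1194 and 1221 in knockout ones. The median share of mitochondrial UMIs was 1.73% and 1.70% against 3.64% and 3.58% in beta cells, and also higher in knockout alpha (3.72% and 3.75% against 2.48% and 2.47%) and delta cells (3.74% and 3.74% against 2.67% and 2.58%), and its part in the results was not tested. Sel1l stood at 64.6 and 65.1 scaled CPM in wild type beta cells and 45.5 and 47.5 in knockout ones, 18.3 and 20.4 against 23.5 and 23.3 in alpha cells, and 26.5 and 22.6 against 28.2 and 25.4 in delta cells. Reads of a 3′ assay come mostly from the end of a transcript and may lie outside the deleted part, so these values do not check the deletion. Scaled CPM are UMI counts as CPM after TMM scaling, which sets the bulk of genes level across the 12 sums of 3 classes in 4 libraries. Log2 changes of genotype are knockout over wild type from a fit of each class alone, with TMM factors of its own. With sums scaled by cell number instead, the median gene itself stood at 0.92 in beta, 0.78 in alpha and 0.69 in delta cells.

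In wild type islets Smad2 and Smad4 were not called different between classes. Smad7, Skil, Klf10, Pmepa1 and Tgif1 each differed between at least 2 pairs of classes. The rarely read Smad3 and Smad6 did so too, but their calls were lost when single libraries were left out. Ski was called between beta and delta cells only. Smad4, the common partner of all receptor-regulated SMADs (GRCm38, chromosome 18, 73639009 to 73703780, minus strand), stood at 39.1 ± 0.200 scaled CPM in beta cells (SD, n = 2), 41.6 ± 2.38 in alpha cells and 36.8 ± 5.47 in delta cells. Smad2, the transducer of activin and TGF-beta signals (chromosome 18, 76241580 to 76310963, plus strand), stood at 16.1 ± 0.704, 15.9 ± 1.43 and 14.4 ± 1.78. Both turned sign with library size only or with cell number scaling for at least 1 pair. The gene of the other such transducer, Smad3 (chromosome 9, 63646767 to 63757994, minus strand), was read only 22 and 12 times in all wild type beta cells, 13 and 9 times in alpha cells and 2 and 12 times in delta cells. Beta cells were called lower than alpha cells (log2 difference -1.54, SE 0.595, adjusted p = 0.0317) and than delta cells (-2.10, SE 0.698, adjusted p = 0.0170). The delta comparison rested on wild type library 2, without which it was -0.11 (adjusted p = 0.959), and leaving out either wild type library ended the alpha call (adjusted p = 0.0893 and 0.154).

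The inhibitory Smad7 (chromosome 18, 75367529 to 75395935, plus strand), whose product blocks the receptors and recruits ubiquitin ligases to them, was ordered by class in wild type islets. It stood at 56.0 and 60.6 scaled CPM in alpha cells, 24.9 and 28.4 in delta cells and 18.8 and 18.6 in beta cells. All 3 classes stood apart in both libraries. Beta cells were 3.10-fold lower than alpha cells (log2 difference -1.63, SE 0.0622, adjusted p = 2.6e-13), and alpha cells 2.18-fold higher than delta cells (adjusted p = 7.2e-09). The beta to delta step was smaller (-0.51, SE 0.0887, adjusted p = 9.9e-05), and it turned to 0.07 when sums were scaled by cell number. Smad6 (chromosome 9, 63953076 to 64022059, minus strand) was near the limit of what these sums can show, with 52 and 50 UMIs in wild type beta cells, 12 and 17 in alpha cells and 1 and 2 in delta cells. Delta cells were called lower than beta cells (log2 difference of beta over delta 1.68, SE 0.693, adjusted p = 0.0481) and than alpha cells (2.06, SE 0.718, adjusted p = 0.0259), and both calls were lost without either wild type library (adjusted p = 0.244 and 0.166, and 0.0966 and 0.233).

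Skil (chromosome 3, 31095058 to 31122577, plus strand), which encodes the corepressor SNON, was lowest in beta cells. Its wild type level was 29.5 and 27.4 scaled CPM in beta cells, 45.5 and 50.1 in alpha cells and 48.6 and 54.8 in delta cells. Beta cells lay below both other classes (-0.74, SE 0.0691, adjusted p = 4.6e-08, and -0.87, SE 0.0811, adjusted p = 7.8e-08), while alpha and delta cells were not called different (-0.12, SE 0.0846, adjusted p = 0.258). The related corepressor gene Ski (chromosome 4, 155154075 to 155222592, minus strand) stood at 17.2 and 14.5, 14.4 and 15.2, and 13.5 and 10.8 scaled CPM in beta, alpha and delta cells. Beta cells were called higher than delta cells (0.39, SE 0.112, adjusted p = 0.00644), but this turned to -0.98 with library size only. Beta and alpha cells were not called different (0.10, SE 0.0803, adjusted p = 0.292), and here library size only gave -0.82.

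Klf10 (chromosome 15, 38291463 to 38300706, minus strand), a zinc finger repressor first known as a TGF-beta inducible early gene, was high in alpha cells. The wild type libraries held 22.9 and 19.6 scaled CPM in alpha cells, 9.25 and 7.85 in beta cells and 6.80 and 8.001 in delta cells. Alpha cells stood 2.49-fold above beta cells (adjusted p = 1.8e-10) and 2.82-fold above delta cells (adjusted p = 6.4e-08), and beta and delta cells were not called different (0.18, SE 0.141, adjusted p = 0.291, or -1.19 with library size only). Pmepa1 (chromosome 2, 173224458 to 173276533, minus strand) had another order, with 18.1 and 19.5 in beta cells, 12.9 and 16.7 in delta cells and 4.32 and 3.82 in alpha cells. Alpha cells were 4.59-fold lower than beta cells (adjusted p = 2.7e-08) and 3.65-fold lower than delta cells (adjusted p = 2.5e-05), and beta and delta cells were not called different (0.33, SE 0.188, adjusted p = 0.147, or -1.04 with library size only).

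Of the 3 classes tested, Tgif1 was highest in delta cells. It encodes a homeodomain repressor that binds SMAD2 (chromosome 17, 70844205 to 70853546, minus strand), and it was read 41 and 84 times in the 458 and 532 wild type delta cells, against 19 and 45 times in the 3541 and 3471 beta cells. On the scale of the fit this was 5.58 and 8.96 scaled CPM in delta cells, 0.216 and 0.506 in beta cells and 0.240 and 0.387 in alpha cells. Delta cells were 20.3-fold above beta cells (log2 difference of beta over delta -4.35, SE 0.283, adjusted p = 6.3e-10) and 23.0-fold above alpha cells (adjusted p = 1.5e-08). Over all genes, 64.3% were called between wild type beta and alpha cells, 56% between beta and delta cells (30.2% higher and 25.8% lower in beta cells) and 47.4% between alpha and delta cells, so the counts of 5, 6 and 5 of the 10 genes lie near that background.

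Promoter sequences from RefSeq (GRCm38.p6, minus strand) were at hand for Ski, Smad3, Smad6 and Tgif1. The 250 bases before the start of Smad6, whose level differed by genotype in beta cells, and before 1 of the 5 listed starts of Tgif1, whose level differed most between the wild type classes, are shown so that the SMAD motifs can be read in them. Capitals mark CAGAC, the SMAD3 and SMAD4 element, and GGCGC, a GC-rich SMAD element, on either strand. Smad6 spans chr9:64022060-64022309 and Tgif1 spans chr17:70851735-70851984.

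Smad6: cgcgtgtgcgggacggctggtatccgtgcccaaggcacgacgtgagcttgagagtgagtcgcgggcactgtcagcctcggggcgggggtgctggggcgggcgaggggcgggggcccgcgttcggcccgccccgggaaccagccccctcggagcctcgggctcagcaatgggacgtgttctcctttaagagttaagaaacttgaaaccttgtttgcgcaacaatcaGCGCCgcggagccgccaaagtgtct
Tgif1: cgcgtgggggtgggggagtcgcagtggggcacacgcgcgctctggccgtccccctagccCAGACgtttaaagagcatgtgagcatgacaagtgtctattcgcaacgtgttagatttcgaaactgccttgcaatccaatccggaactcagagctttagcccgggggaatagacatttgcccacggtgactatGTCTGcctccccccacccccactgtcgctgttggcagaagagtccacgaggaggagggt

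The Smad6 window held 1 GGCGC match and no CAGAC, and the Tgif1 window held 2 CAGAC matches. That start was shown because it held the most CAGAC matches of the 5, and 2 of the others held 1 and the remaining ones 0. Ski held 7 GGCGC matches and no CAGAC, and the Smad3 window neither. CAGAC occurs in 42.2% and GGCGC in 32% of the 32851 mouse promoters of this length, so such matches are common. The palindrome GTCTAGAC (0.167% of promoters), TGANTCA (6.75%) and TGACGTCA (1.55%), searched on both strands, were in none of the windows of these 4 genes.

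In Sel1L knockout beta cells 6 of the 10 genes were higher. Klf10, Smad6, Skil, Pmepa1, Smad7 and Smad4 rose, no gene of the 10 fell, and Smad2, Smad3, Ski and Tgif1 were not called. In these cells 41.7% of the 14846 genes tested were called, 20.4% higher and 21.3% lower, beside which the 6 of 10 stand. Groups did not overlap for 74.1% of all genes tested in beta cells, so a gap between 2 and 2 libraries is common here. The median log2 change of the 10 was 0.44, against 0.003 for all genes tested. Because the 10 were chosen with earlier results of these data known, such shares and medians are no test of the group. The values of the 10 genes in all 3 classes are drawn in the plot of levels by library and in the plot of genotype effects.

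**Figure D1:**
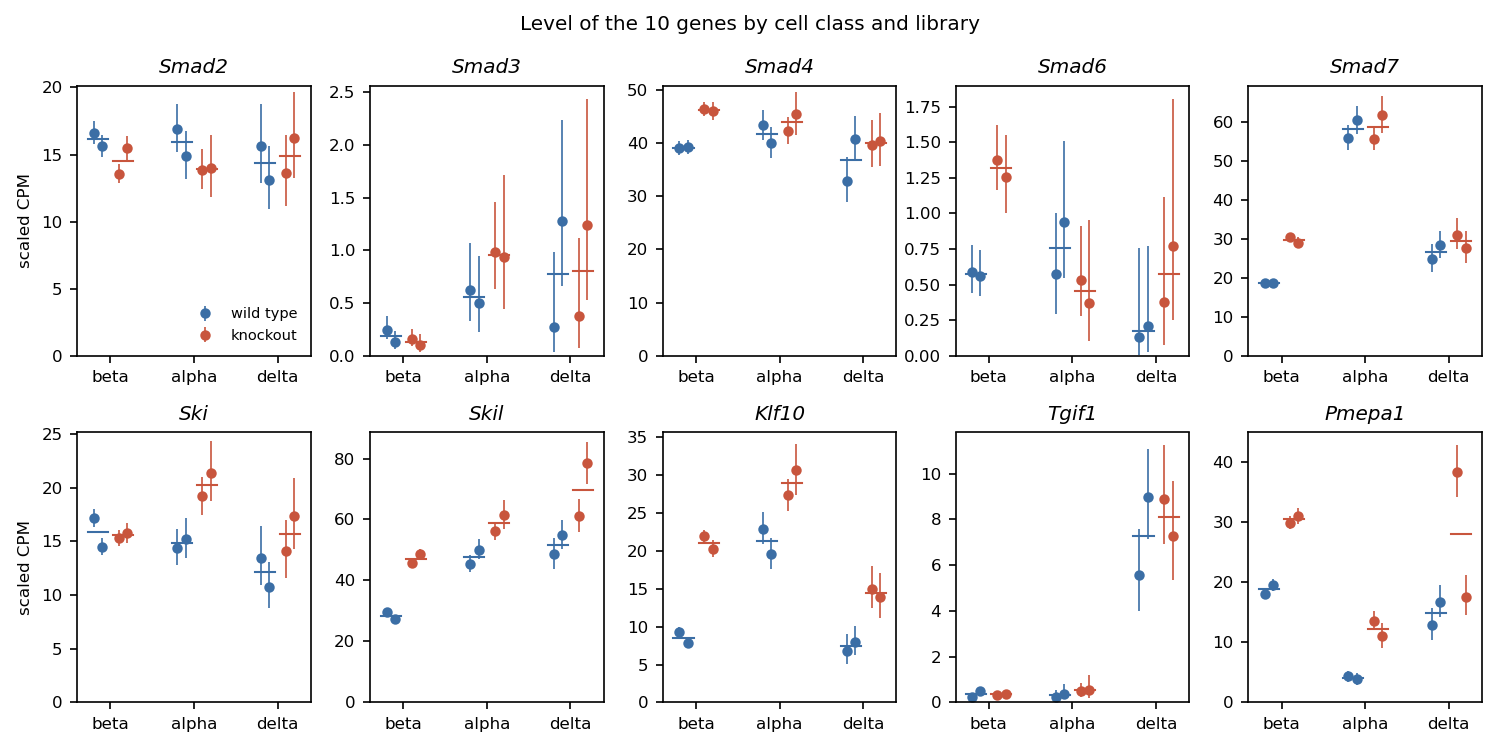
Scaled CPM (CPM after TMM scaling over 12 sums) of each gene by cell class, 1 panel per gene with its own axis from 0. Points are libraries, vertical bars exact 95% Poisson intervals (counting error only) and short horizontal lines the mean of the 2 libraries of a group. In beta cells both knockout libraries lie above both wild type libraries for Klf10 (21.9 and 20.3 against 9.25 and 7.85), and in delta cells knockout library 1 alone is high for Pmepa1 (38.4).

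**Figure D2:**
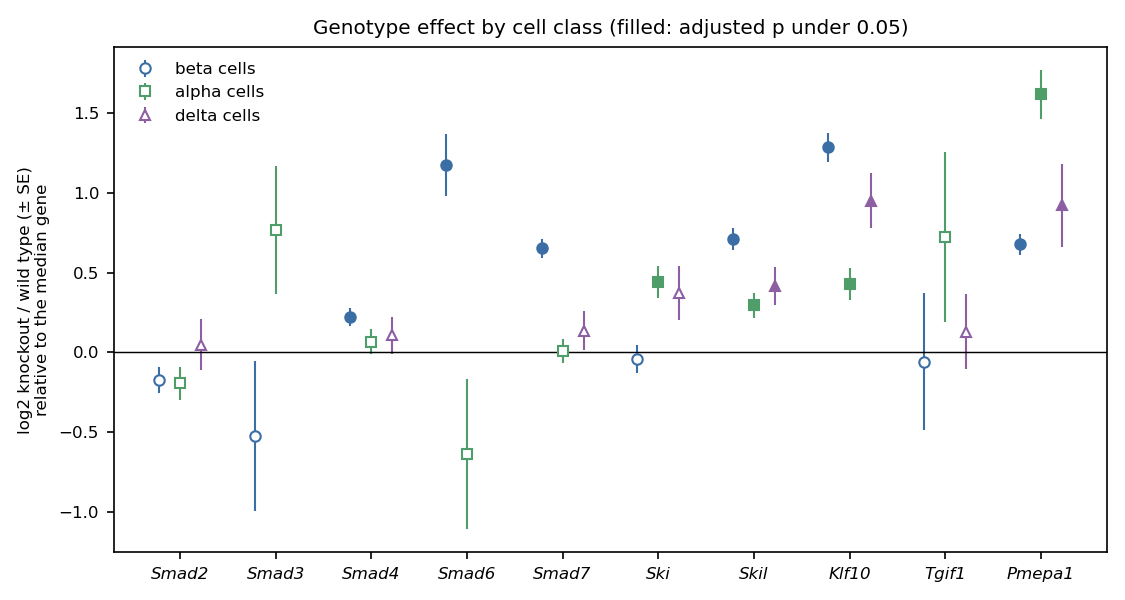
Log2 change of knockout over wild type with its standard error for the 10 genes in beta, alpha and delta cells, from edgeR fits of 2 libraries per group. Filled symbols have an adjusted p under 0.05. Smad7 is at 0.65 in beta cells and at 0.01 in alpha cells, and Smad3 and Smad6 have no value in delta cells because their counts were too low to be tested.

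Klf10 showed the largest rise of the group in beta cells. Wild type libraries held 9.25 and 7.85 scaled CPM and knockout libraries 21.9 and 20.3, with no overlap. This was a 2.44-fold rise (log2 change 1.29, SE 0.0908, adjusted p = 0.000134). Counted per beta cell, Klf10 went from 0.230 and 0.201 UMIs to 0.972 and 1.01.

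Of the inhibitory SMADs, Smad7 went from 18.8 and 18.6 scaled CPM to 30.4 and 29.1. The groups lay far apart beside the gap between libraries of a group (0.65, SE 0.0592, adjusted p = 0.000332, 1.57-fold). Smad6 was read 52 and 50 times in wild type against 147 and 86 times in knockout beta cells, that is 0.591 and 0.562 against 1.38 and 1.26 scaled CPM. Both knockout libraries lay above both wild type libraries, and the rise was 2.26-fold (1.18, SE 0.196, adjusted p = 0.00337). In beta cells matched at 40 to 60% insulin it was not seen (-0.06, adjusted p = 0.926). Even so, knockout beta cells held only 0.0612 and 0.0626 Smad6 UMIs per cell.

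The corepressor genes parted. Skil rose 1.64-fold, from 29.5 and 27.4 to 45.7 and 48.6 scaled CPM (0.71, SE 0.0674, adjusted p = 0.000386). Ski stood at 17.2 and 14.5 in wild type against 15.3 and 15.7 in knockout beta cells, so the groups overlapped (-0.04, SE 0.0878, adjusted p = 0.717), although library size only gave 0.86 and cell number scaling 0.87. Tgif1 overlapped as well, with 19 and 45 UMIs in wild type against 35 and 26 in knockout beta cells (-0.06, SE 0.429, adjusted p = 0.925, or 0.85 with cell number scaling).

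Pmepa1 rose 1.60-fold in beta cells, from 18.1 and 19.5 to 29.9 and 31.1 scaled CPM (0.68, SE 0.0679, adjusted p = 0.000466). It is a target whose product takes SMAD2 and SMAD3 away from the receptor. Its UMIs were spread over many cells: the 10 richest beta cells of a library held between 3.16% and 6.12% of them.

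Among the transducers Smad4 alone was called. Its values of 39.0 and 39.2 in wild type against 46.3 and 45.9 scaled CPM in knockout beta cells did not overlap, but the step was small (0.22, SE 0.0574, adjusted p = 0.0194, 1.17-fold). Without knockout library 1 or 2 the call was lost (adjusted p = 0.109 and 0.107). Smad4 shares its locus with AC132418.2 on the other strand, and whether the counting used strand is not given in the sources used here. Smad2 stood at 16.6 and 15.6 against 13.5 and 15.5 scaled CPM and was not called (-0.17, SE 0.0843, adjusted p = 0.141), with 0.73 under library size only and 0.75 under cell number scaling. Smad3, at 22 and 12 against 17 and 7 UMIs, was not called either (-0.52, SE 0.472, adjusted p = 0.406).

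In alpha cells 4 of the 10 genes were higher and none was lower, where 17% of 12769 genes tested were called, 6.97% higher. Groups did not overlap for 60.2% of all genes tested in alpha cells. Pmepa1 showed the largest change. Its values were 4.32 and 3.82 scaled CPM in wild type against 13.6 and 11.0 in knockout alpha cells, without overlap (1.62, SE 0.153, adjusted p = 0.000193, 3.07-fold). Ski went from 14.4 and 15.2 to 19.2 and 21.4 (0.44, SE 0.0984, adjusted p = 0.0126). Klf10 went from 22.9 and 19.6 to 27.3 and 30.6 (0.43, SE 0.0993, adjusted p = 0.0144). Skil went from 45.5 and 50.1 to 56.1 and 61.6 (0.30, SE 0.0788, adjusted p = 0.0262).

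These last 3 calls rested on few libraries. Klf10 lost its call without knockout library 1 or 2 (adjusted p = 0.0526 and 0.103), Ski without knockout library 2 (0.0729) and Skil without either knockout library (0.0611 and 0.151) or wild type library 1 (0.110). DESeq2 called neither Ski (adjusted p = 0.0554) nor Skil (0.0697) in alpha cells. Smad7, which among wild type classes was highest in alpha cells, stood at 56.0 and 60.6 in wild type against 55.8 and 61.9 in knockout alpha cells, overlapping (0.01, SE 0.0776, adjusted p = 0.954). With cell number scaling it was called higher (0.78), at a shift equal to that of the median gene of the class (0.78). Smad2 was at 16.9 and 14.9 against 13.9 and 14.0 (-0.19, adjusted p = 0.226, or 0.57 with cell number scaling) and Smad4 at 43.3 and 39.96 against 42.3 and 45.4 (0.07, adjusted p = 0.601). The rarely read Smad3 (13, 9, 24 and 10 UMIs), Smad6 (12, 17, 13 and 4) and Tgif1 (5, 7, 12 and 6) were not called.

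The Pmepa1 UMIs of alpha cells came from few cells. The 10 richest of the 1112, 939, 759 and 328 alpha cells held 56.7%, 58.0%, 73.2% and 83.9% of all Pmepa1 UMIs of the class in wild type 1 and 2 and knockout 1 and 2. After removal of 6, 4, 5 and 5 alpha cells that held UMIs of at least 50% of a non-endocrine marker list or at least 3% of another hormone, 57, 38, 214 and 39 UMIs were left of 90, 69, 332 and 118. In non-hormone CPM, the level was 20.4 before and 6.85 after in knockout library 2 and 24.7 before and 16.1 after in knockout library 1. In wild type 1 and 2 it was 7.26 and 6.51 before and 4.64 and 3.61 after. The change was then 1.47 (SE 0.316, adjusted p = 0.00952). Endothelial markers summed to 15.8 and 17.3 non-hormone CPM in wild type against 27.0 and 27.7 in knockout alpha cells, with all 8 of 8 read in each library. Schwann markers summed to 70.4, 69.1, 78.0 and 73.8, with 8, 7, 8 and 6 of 8 read and Sox2 at 0 in wild type library 2 and, with S100b, in knockout library 2. The part of such cells in the remaining Pmepa1 difference was not tested.

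**Figure D3:**
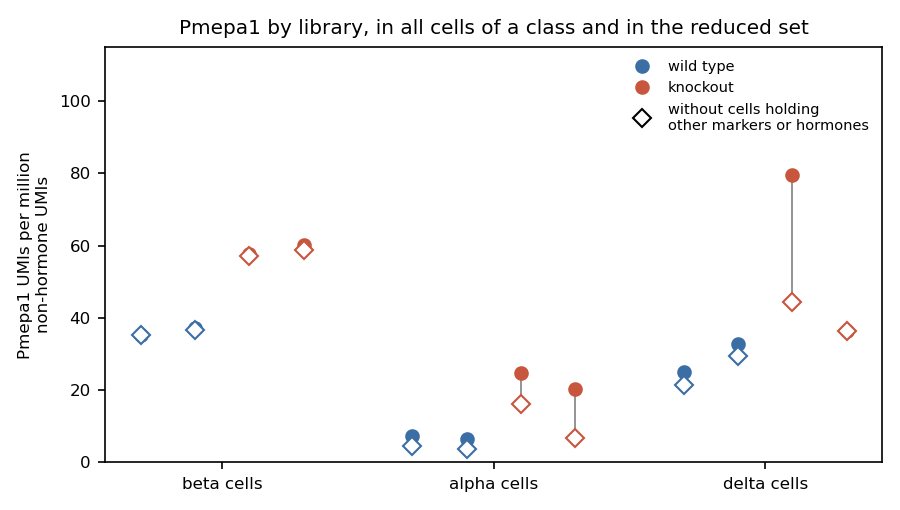
Pmepa1 level in non-hormone CPM, for the 4 libraries in beta, alpha and delta cells. Circles are all cells of a class, and open diamonds the same class without cells that held other markers or hormones. The diamond of knockout library 2 in alpha cells drops to 6.85 and that of knockout library 1 in delta cells to 44.4, while beta cells hardly move.

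Delta cells had the fewest cells, and 8 of the 10 genes were tested there. Klf10, Skil and Pmepa1 were called higher and none lower, where 8.23% of 11647 genes were called, 3.19% higher and 5.04% lower. Groups did not overlap for 55.6% of all genes tested in delta cells. Of 114 values of the 10 genes under the alternatives, 13 lost a call in this class, and only some of these are named below. Klf10 stood at 6.80 and 8.001 scaled CPM in wild type against 15.0 and 13.9 in knockout delta cells, without overlap (0.95, SE 0.172, adjusted p = 0.00744, 1.94-fold). Skil went from 48.6 and 54.8 to 61.1 and 78.4 (0.42, SE 0.118, adjusted p = 0.0454). That call was lost without wild type library 1 or 2 (adjusted p = 0.182 and 0.0848) or knockout library 2 (0.366) and with DESeq2 (0.0583).

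Pmepa1 was high in 1 knockout library of delta cells. The values were 12.9 and 16.7 in wild type against 38.4 and 17.6 scaled CPM in knockout delta cells (0.92, SE 0.262, adjusted p = 0.0464). Without knockout library 1 the change was 0.22 (adjusted p = 0.537), and the call was also lost without wild type library 1 or 2 (0.164 and 0.0935). The 10 richest delta cells of knockout library 1 held 58.9% of its Pmepa1 UMIs, and 165 of 302 UMIs were left once 4 delta cells with other markers were removed. The change was then 0.56 (adjusted p = 0.0517). Endothelial markers summed to 30.7 and 50.01 non-hormone CPM in wild type against 28.2 and 36.7 in knockout delta cells, and Schwann markers to 31.0, 22.3, 35.3 and 23.3, with 5, 5, 8 and 2 of 8 read. Smad7 stood at 24.9 and 28.4 against 31.1 and 27.7 (0.14, SE 0.122, adjusted p = 0.520), Ski at 13.5 and 10.8 against 14.1 and 17.3 (0.37, SE 0.169, adjusted p = 0.188) and Tgif1 at 5.58 and 8.96 against 8.90 and 7.27 (0.13, SE 0.233, adjusted p = 0.766). The groups overlapped for Smad7 and Tgif1 but not for Ski, and none of the 3 was called. Smad2 and Smad4 overlapped between groups (0.05 and 0.11, adjusted p = 0.881 and 0.602).

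Whether the genotype effect differed between classes was tested as a difference of effects in 1 fit of the 12 sums with library as a block. Between beta and alpha cells, 6 of the 10 genes were called, beside 26.6% of 14181 genes (13.5% higher and 13.1% lower in beta cells). Of 149 values of this difference under the alternatives, 15 lost a call, and only some of these are named below. The effect was higher in beta cells for Klf10 (0.89, SE 0.107, adjusted p = 9.8e-06), Smad7 (0.67, SE 0.0868, adjusted p = 2.1e-05), Skil (0.42, SE 0.0958, adjusted p = 0.00306) and Smad6 (1.84, SE 0.525, adjusted p = 0.0151). It was lower in beta cells for Ski (-0.47, SE 0.112, adjusted p = 0.0044) and Pmepa1 (-0.91, SE 0.272, adjusted p = 0.0193). The 10 richest alpha cells held 56.7% and 58.0% of the Pmepa1 UMIs in wild type libraries and 73.2% and 83.9% in knockout ones. Without alpha cells that held other markers or hormones, the knockout Pmepa1 levels fell from 24.7 and 20.4 to 16.1 and 6.85 non-hormone CPM. The wild type levels fell as well, from 7.26 and 6.51 to 4.64 and 3.61. The Ski difference turned to 0.20 with library size only and was lost without wild type library 1 (adjusted p = 0.130) or knockout library 2 (0.0770). Smad6 lost its call without wild type library 2 (0.168) or either knockout library (0.0845 and 0.0584), Skil without wild type library 2 (0.0685), and Pmepa1 without either wild type library (0.0876 and 0.163). Pmepa1 was also not called with library size only (-0.20, adjusted p = 0.499). Klf10 and Smad7 kept direction and call under every setting tried for this difference. The matched insulin share covers beta cells only and was not among these settings.

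Between beta and delta cells, Smad7 alone was called (0.53, SE 0.123, adjusted p = 0.00579), beside 18.8% of 14181 genes (9.41% higher and 9.37% lower in beta cells). That call was lost without wild type library 2 (0.41, adjusted p = 0.134). Skil just missed the threshold (0.31, SE 0.110, adjusted p = 0.0577), which it passed with RLE size factors (0.32, adjusted p = 0.0465), and Klf10 was not called (0.36, SE 0.185, adjusted p = 0.200). Pmepa1 was not called (-0.24, SE 0.249, adjusted p = 0.564), but was -0.69 (adjusted p = 0.0135) without knockout library 2.

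The level of several feedback genes also went with the insulin share of a beta cell. Among wild type beta cells, Smad7 stood at 56.8 and 51.7 non-hormone CPM in cells with 40 to 55% insulin (181 and 87 cells), 36.2 and 35.9 in cells with 55 to 70% and 32.4 and 32.2 above 70%. Knockout beta cells at 40 to 55% held 56.1 and 52.7, which overlapped with wild type cells of the same share. At 55 to 70%, knockout cells held 52.9 and 48.9, above both wild type libraries. These are descriptions, with no test of the trend.

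Klf10 behaved differently at a matched share. At 40 to 55% insulin, wild type beta cells held 26.0 and 26.3 and knockout cells 36.6 and 36.3 non-hormone CPM, and at 55 to 70% they held 17.7 and 15.2 against 34.7 and 35.2. Skil held 67.4 and 71.9 against 82.9 and 89.4 at 40 to 55%, and 57.7 and 52.0 against 78.8 and 88.3 at 55 to 70%. Pmepa1 held 38.5 and 57.9 against 63.3 and 61.2 at 40 to 55%, and 35.3 and 37.9 against 52.9 and 66.2 at 55 to 70%. For all 3 genes both knockout libraries lay above both wild type libraries in each of these ranges. How many of all genes part in this way was not counted for these ranges. Over all beta cells, groups did not overlap for 74.1% of genes tested. At 25 to 40% the order was not the same for every gene. There wild type library 1, with 79 cells, held 59.5 for Klf10 against 49.2 and 42.6 in knockout libraries, and 78.9 for Smad7 against 59.9 and 61.3. Other wild type cells with less insulin were few (16 and 16 below 25%, and 16 at 25 to 40% in wild type library 2), as were knockout cells above 70% (4 and 7).

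In beta cells with 40 to 60% insulin in both genotypes (373, 226, 1143 and 791 cells), 3 of the 9 genes tested were called, all higher, beside 33.2% of 13016 genes (16.3% higher). They were Klf10 (0.83, SE 0.113, adjusted p = 0.00058), Pmepa1 (0.60, SE 0.122, adjusted p = 0.00467) and Skil (0.50, SE 0.0919, adjusted p = 0.00295). Smad7 was at 0.23 (SE 0.0910, adjusted p = 0.0797), Smad4 at 0.11 (adjusted p = 0.340) and Smad6 at -0.06 (SE 0.421, adjusted p = 0.926). Wild type cells of 40 to 55% insulin carried more alpha markers, at 894 and 1851 non-hormone CPM against 330 and 301 in knockout cells. They also carried more delta markers, at 417 and 350 against 111 and 76.7. Alpha markers were higher in wild type over all beta cells as well, at 872 and 993 against 350 and 343. Delta markers over all beta cells stood at 233 and 130 against 139 and 85.0. Endothelial markers summed to 14.9 and 66.6 in wild type against 17.5 and 17.2 in knockout cells of that range, and wild type library 2, where they were high, also held more Smad6 (5.26 against 2.41, from 6 and 5 UMIs) and Pmepa1 (57.9 against 38.5) than wild type library 1. The part of such RNA in the matched values was not tested, and alpha cells hold more Smad7 and Klf10 than beta cells.

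**Figure D4:**
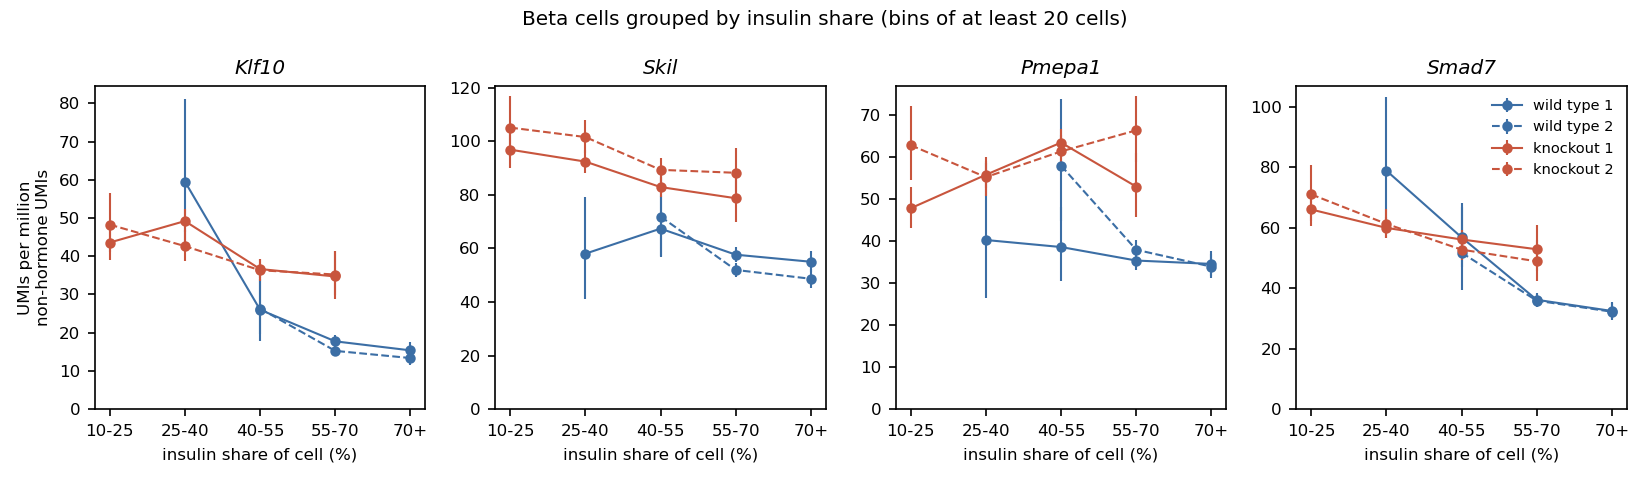
Level of Klf10, Skil, Pmepa1 and Smad7 in non-hormone CPM (each axis from 0) against the insulin share of beta cells, by library, in bins of at least 20 cells. Vertical bars are exact 95% Poisson intervals (counting error only). At 40 to 55% insulin the Smad7 points of all libraries lie between 51.7 and 56.8, while Klf10 is at 26.0 and 26.3 in wild type against 36.6 and 36.3 in knockout libraries, and at 25 to 40% wild type library 1 (59.5, 79 cells) is above both.

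Other cells of the preparation held far more of some of these genes than the hormone cells. The cells were picked by marker genes: 147 to 171 endothelial cells, 55 to 119 macrophages, 32 to 50 mesenchymal and 14 to 31 Schwann cells per library, beside 116 to 229 PP cells. Pmepa1 stood at 2398 and 2553 non-hormone CPM in wild type against 2850 and 2969 in knockout Schwann cells, and at 1675, 1878, 1731 and 1756 in endothelial cells of wild type 1 and 2 and knockout 1 and 2. Beta cells held 35.3, 37.3, 57.6 and 60.2 on the same scale. Mesenchymal cells held 683.8 to 1068 and macrophages 446.4 to 551.9. PP cells, which make pancreatic polypeptide, held only 0.823 and 3.51 in wild type against 14.8 and 5.03 in knockout libraries.

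Smad6 was a gene of endothelial cells here. They held 240.1 and 246.1 non-hormone CPM in wild type against 332.6 and 366.1 in knockout libraries, against 1.15, 1.07, 2.65 and 2.44 in beta cells. In beta cells, the summed endothelial markers were 12.3 and 15.2 in wild type against 19.2 and 17.7 in knockout libraries, with all 8 markers read in each, and the part of endothelial RNA in the Smad6 difference was not tested. Without beta cells that held other markers or hormones, Smad6 stood at 1.09 and 1.02 against 2.56 and 2.44 (log2 change 1.23, SE 0.190, adjusted p = 0.00264). Smad7 was also highest in endothelial cells, at 469.2 and 460.2 in wild type against 565.0 and 689.6 in knockout libraries. The knockout libraries lay above the wild type ones for both inhibitory SMADs in endothelial cells, which was not tested. How many of all genes part in this way in endothelial cells was not counted. In beta, alpha and delta cells groups did not overlap for 74.1%, 60.2% and 55.6% of genes tested.

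Tgif1 reached 123.8 to 247.9 non-hormone CPM in Schwann cells, 82.3 to 98.7 in macrophages and 49.9 to 90.3 in endothelial cells, against 10.9 to 18.5 in delta cells. PP cells held 8.23 and 4.01 in wild type against 3.22 and 2.24 in knockout libraries, between the levels of delta and of beta or alpha cells. Smad3 reached 28.5 to 38.4 in endothelial cells, against 0.198 to 0.487 in beta cells. Skil stood at 356.6 and 337.5 in wild type against 366.9 and 361.4 in knockout endothelial cells, a small gap that was not tested. In contrast, Klf10 ranged only from 11.96 to 58.7 over these 5 cell types and all libraries, and Smad2 from 23.2 to 74.9. The plot of the genes across cell types shows each library.

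**Figure D5:**
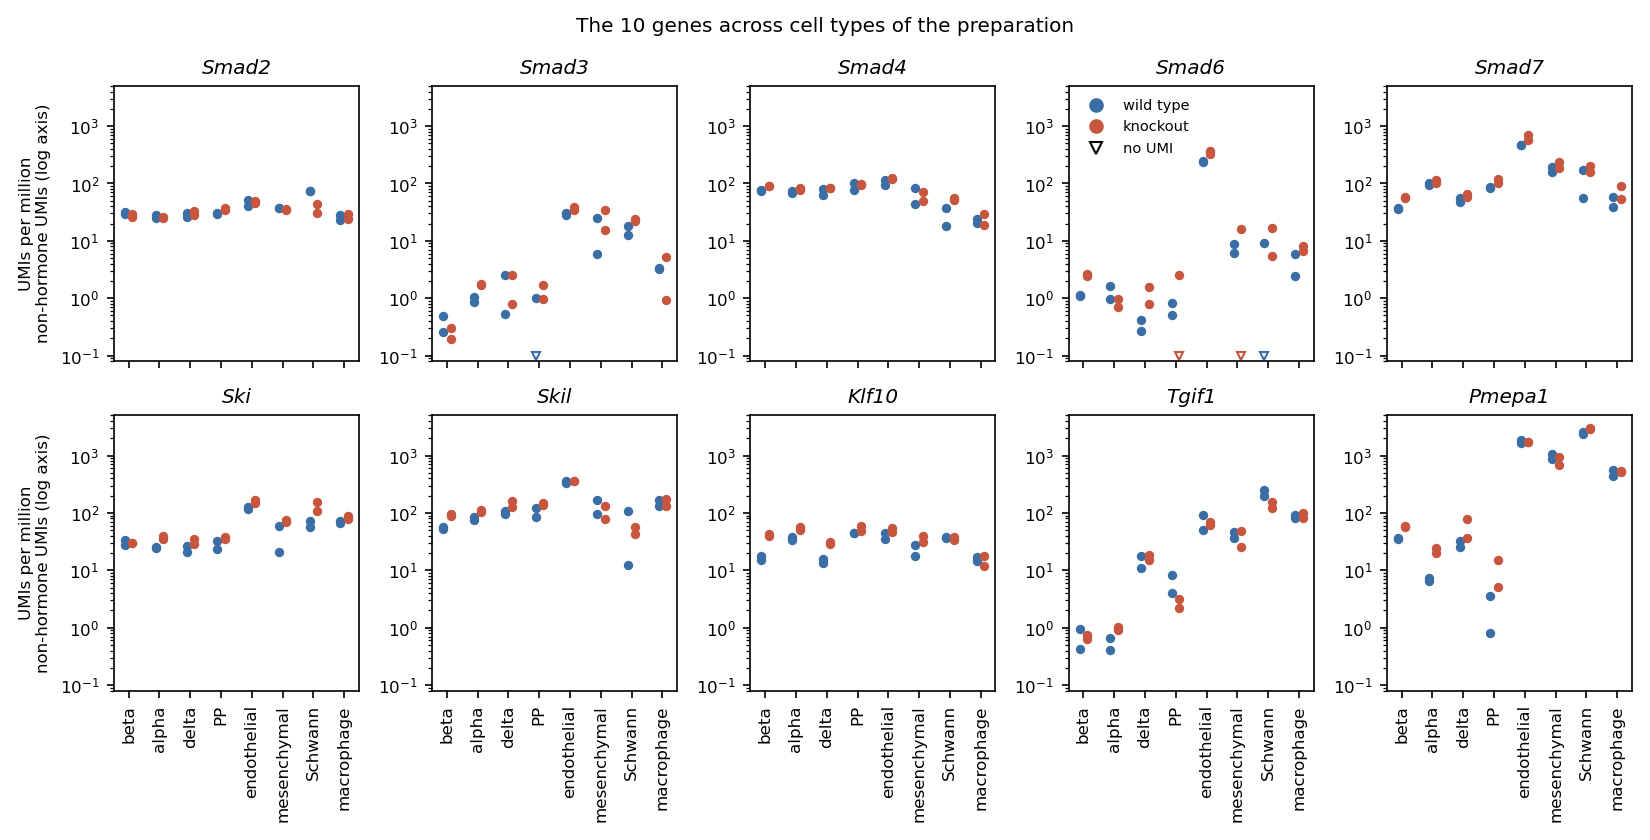
Level in non-hormone CPM (log axis) of the 10 genes in 8 cell types, by library. Points are libraries, wild type left and knockout right, and open triangles at the foot mark libraries with no UMI of the gene. Smad6 is at most 2.65 in beta cells and at least 240.1 in endothelial cells, and Pmepa1 is highest in Schwann cells (2398 to 2969).

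The other genes of the pathway were counted by list, beside the 41.7% of all genes called in beta cells (20.4% higher), 17% in alpha cells (6.97% higher) and 8.23% in delta cells (3.19% higher). The median log2 change in beta cells was 0.58 for ligands, 0.35 for receptors, 0.08 for other SMADs, 0.05 for partners and regulators, 0.19 for other targets and 0.06 for immediate early genes, against 0.003 for all genes tested. The lists, too, were chosen with earlier results of these data known, so these counts and medians are no test of them. Of 10 ligand genes, 8 were tested in beta cells and 3 were higher, none lower. Inha, the inhibin alpha subunit gene, went from 8.68 and 10.1 to 21.8 and 22.4 scaled CPM (log2 change 1.22, adjusted p = 0.000138). Inhba, an activin subunit gene, was at 0.93 (adjusted p = 0.0085) and Inhbb at 1.81 (adjusted p = 0.0106), both at low levels. None of the ligands was called in alpha (5 tested) or delta cells (4 tested).

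Of 14 receptor genes, 7 were higher and 1 lower in knockout beta cells. Tgfbr1, the type I TGF-beta receptor, fell from 23.7 and 22.8 to 16.4 and 16.0 scaled CPM (-0.54, adjusted p = 0.000711). Tgfbr3, the coreceptor betaglycan, rose from 4.14 and 3.18 to 8.58 and 8.42 (1.20, adjusted p = 0.000638). The activin receptor gene Acvr2b rose from 4.42 and 4.89 to 8.91 and 8.82 (0.91, adjusted p = 0.000537), and the decoy receptor gene Bambi from 41.0 and 46.9 to 98.7 and 80.0 (1.01, adjusted p = 0.00071). In alpha cells 5 of 11 receptor genes were higher, where 6.97% of all genes were, and in delta cells 2 of 10, where 3.19% were, with none lower.

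Among the 3 other SMADs, the BMP transducer Smad9 was lower in beta cells (-0.83, adjusted p = 0.0276), Smad1 and Smad5 were not called, and the alpha and delta counts were 0 and 1 higher. Of 16 tested partners and regulators 5 were higher and 2 lower in beta cells. The ubiquitin ligase gene Nedd4l rose (0.52, adjusted p = 0.00121) and Fkbp1a, whose product holds the type I receptor silent, fell from 183.2 and 191.7 to 117.6 and 112.4 scaled CPM (-0.72, adjusted p = 0.000401). Alpha and delta cells had 4 and 2 of 16 higher and none lower, beside 6.97% and 3.19% of all genes higher.

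Other targets of the pathway split, with 5 of 20 higher and 4 lower in beta cells. Bhlhe40, a transcriptional repressor gene, rose from 8.59 and 11.9 to 22.8 and 25.2 scaled CPM (1.21, adjusted p = 0.000955) and Ltbp3, which encodes a protein that stores latent TGF-beta, rose by 0.44 (adjusted p = 0.00227). The cell cycle inhibitor gene Cdkn1a fell from 68.7 and 84.6 to 47.2 and 54.6 (-0.61, adjusted p = 0.0063). Of these targets, 3 of 17 were higher and 3 lower in alpha cells, where 17% of all genes were called. In delta cells 1 of 13 was higher and 3 lower, where 8.23% of all genes were called. Of 16 immediate early and dissociation genes, which move with the handling of cells, 4 were higher and 2 lower in beta cells. Fosb rose by 0.92 (adjusted p = 0.000293) and Egr1 by 0.58 (adjusted p = 0.00231), while Ier3 fell by 0.81 (adjusted p = 0.000386) and Nr4a1 fell by 1.39 (adjusted p = 0.00329). In alpha cells 2 of 15 on this list were higher and 5 lower, and in delta cells 2 of 15 higher and 1 lower. The difference of effect from alpha cells was higher in beta cells for 7 of 16 and lower for 3 (median 0.41). From delta cells it was higher for 6 and lower for 4 (median 0.30). Over all genes 26.6% and 18.8% of these differences were called. Klf10 and Skil are early response genes too, and the part of handling in their values was not tested.

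For each of the 10 genes, the genes whose scaled level was most alike over the 12 sums were listed by Pearson's r among 6874 genes, as a description, since the sums share 4 libraries and 3 classes. Cd99l2 (0.99) and Stk39 (0.99) were most like Tgif1. Ccnl2 (0.98) and Rplp2 (0.98) were most like Smad7, Rnf4 (0.97) and Gm11808 (0.97) most like Klf10, and Tnrc6b (0.94) and Spg20 (0.94) most like Skil. Ogt (0.96) and Scamp1 (0.95) were most like Pmepa1. Those of the remaining genes are not given here.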

How the data were processed

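The deposited tables hold whole-number UMI counts per gene and cell, as made by the authors. The submitters' processing notes name Cell Ranger 3.0.0, Seurat 2.3.4 and mm10. Libraries held 2483 to 5951 cells and 99156230 to 228515309 UMIs. Doublets were scored against simulated ones (0.8% expected per 1000 cells), which removed 283, 273, 150 and 49 cells. Libraries shared 1 to 9 barcodes. UMIs were summed per class and library and tested with edgeR 4.0.16 (quasi-likelihood, TMM, filterByExpr), with Benjamini-Hochberg adjustment over all genes tested and a threshold of 0.05. Classes were fitted alone for the genotype effect, and in 1 fit of 12 sums, with library as a block, for differences between classes. Exact 95% Poisson intervals cover counting error only. On simulated counts with a log2 change of 1, the fits recovered 98% of changed genes in beta, 91.8% in alpha and 83% in delta cells, and at 0.5 they recovered 78%, 51% and 26.6%. For the differences of effect from alpha and delta cells these shares were 84% and 72.5% at 1, and 10% and 7% at 0.5. False calls made up 0% to 6.15% of the genes called. The simulated spread between libraries was fixed and not taken from these fits. In the fit of 12 sums the fitted spread (common dispersion 0.00106) was smaller than the simulated one. The shares for the differences of effect therefore do not describe that fit. Changes were placed only in genes above a count limit, so the shares do not cover genes as rarely read as Smad3 and Smad6.

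The 10 genes, the gene lists and the cell limits were chosen with earlier results of these data known. Named genes were the 10 themselves, in each pathway list at most 4 genes called in beta cells, ranked by p, and the genes most like some of the 10. Smad1 and Smad5 were named too, though not called in beta cells. The Id genes were named after their values were seen. Alternatives covered the scaling, the low-count filter, DESeq2 1.42.0, doublet removal, class limits, cells with other markers, hormone genes, matched insulin share (genotype effect in beta cells only) and each library left out. Coordinates are from GENCODE vM21 (GRCm38).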

Additional observations from a re-analysis of the deposited data

Results flagged for a closer look

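These results concern genes whose knockout effect differed between 2 cell classes by a test of the difference itself (edgeR, adjusted over all genes). Between beta and alpha cells the log2 difference was 1.84 for Smad6, 0.67 for Smad7, -0.47 for Ski, 0.42 for Skil, 0.89 for Klf10 and -0.91 for Pmepa1. Between beta and delta cells it was 0.53 for Smad7. Most Pmepa1 UMIs of alpha cells came from the 10 richest cells of each library. No explanation was tested.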

How the results depend on the processing

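Of 1127 values of the 10 genes under the alternatives, 998 kept direction and side of the threshold, 63 lost the call, 46 gained one and 20 changed sign with a call in 1 of the settings; 54 of the 998 changed sign with a call in neither. With library size only, Smad2 and Ski in beta cells were 0.73 and 0.86, the beta to alpha difference of Ski 0.20 and the beta to delta difference of Smad2 0.54. The wild type beta to alpha steps were then -0.89 (Smad2) and -0.82 (Ski), the beta to delta steps -1.20 (Smad2), -1.30 (Smad4), -0.98 (Ski), -1.19 (Klf10) and -1.04 (Pmepa1), and the alpha to delta steps -0.31 (Smad2) and -0.29 (Smad4). With cell number scaling, beta values were 0.75 (Smad2), 0.87 (Ski) and 0.85 (Tgif1), alpha Smad2 0.57, the beta to alpha step of Smad4 0.32 and the beta to delta step of Smad7 0.0705. Smad6 was -0.0636 at matched insulin, where 3 of the genes were called. The number of genes called was 6188 in beta, 2177 in alpha and 959 in delta cells, 3767 and 2663 for the differences from alpha and delta cells, and 9119, 7943 and 6726 between wild type classes. Library size only gave 12953 in beta (97.6% higher, against 48.9%) and 3712 in alpha cells (94.3%, against 40.9%), 9574 and 9028 for the differences (96.8% and 98.2%, against 50.8% and 50.1%) and 12526 between wild type beta and delta cells (4.37%, against 53.9%). Cell number scaling gave 12943, 11195 and 8918 (97.6%, 99.7% and 99.6%, against 38.8% in delta cells). DESeq2 gave 935 in alpha (20.6% higher) and 458 in delta cells (16.6%), 1944 and 1610 for the differences, and no low-count filter gave 1632 in delta cells. Leaving out each library gave 3511 to 6075 in beta (3835 and 3511 without knockout 1 and 2), 764 to 2162 in alpha (769 and 764), 304 to 616 in delta, 2371 to 2918 and 1608 to 1766 for the differences, 7292 to 9081, 5845 to 7843 and 4536 to 6649 between wild type classes, and 5 to 6 of the 10 genes in beta cells. Not all of the 63 lost calls are named in the text above. Causes were not tested.

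Same-numbered libraries did not deviate together (r = 0.0504, -0.00503 and 0.0698 in beta, alpha and delta cells). With the replicate number as a block the counts were 6039, 3025, 1332, 4263 and 2998, and of the 10 genes only the beta to delta difference of Skil changed call (0.30, adjusted p = 0.0177). Depth limits Smad3, Smad6 and Tgif1, with 1 to 147 UMIs per sum.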

Other observations

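Of the Id genes, targets of BMP and SMAD1/5 signals that encode inhibitors of basic helix-loop-helix factors, Id1, Id2 and Id3 fell in alpha and delta cells, while Id4 was not called in alpha (-0.26, adjusted p = 0.133), delta (-0.29, adjusted p = 0.262) or beta cells (-0.09, adjusted p = 0.596). They were chosen after their values were seen. Id3 fell in alpha cells from 541 and 562 to 315 and 305.0 scaled CPM (log2 change -0.83, adjusted p = 0.000122) and in delta cells from 153 and 134 to 44.2 and 40.8 (-1.76, adjusted p = 2.2e-07, both edgeR). In beta cells it stood at 36.4 and 36.7 against 34.0 and 29.1 and was not called (-0.23, adjusted p = 0.0567). The effect differed between beta and alpha cells (0.62, adjusted p = 2.2e-05) and between beta and delta cells (1.54, adjusted p = 2.2e-08).

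Id1 fell in alpha (-0.71, adjusted p = 0.000788), delta (-1.62, adjusted p = 0.000345) and beta cells (-1.09, adjusted p = 0.00892), where it was low (2.70 and 2.43 against 1.49 and 0.906 scaled CPM). Id2 fell in alpha (-0.61, adjusted p = 0.00129) and delta cells (-0.41, adjusted p = 0.0104) and was not called in beta cells (0.21, adjusted p = 0.158).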
